A study of Sus scrofa domesticus with 150 samples.

Results

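Edge and center biopsies from 4 pig wounds on day 3 after wounding were compared gene by gene, as 8 of the 150 samples of the series (4 edge and 4 center). Day 3 has 6 wounds, 2 from each of pigs 1323, 1324 and 1325, and the 4 kept here were those whose edge and center clearly differed: wounds F and G of pig 1323, wound F of pig 1324 and wound F of pig 1325. Wound G of pig 1324 and wound G of pig 1325 were left out because their edge and center samples were nearly alike. The wounds were thus chosen by their own differences in counts between edge and center, and those differences are given below as a description with no test. Tests were made only on samples that the choice did not use, or on all 6 wounds of the day.

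All animals were female domestic pigs of a Yorkshire mix, whose age is not given in the labels, with full-thickness excisional wounds on the back under 2 layers of dressing and no other treatment. A wound was biopsied once, at its edge and its center, and then left the experiment. The 4 wounds come from 3 animals, so the 2 wounds of pig 1323 share an animal. Other days served as the comparison: days 1 and 5 (other wounds of the same 3 pigs), days 2 and 4 (wounds of pigs 1326, 1327 and 1328) and the skin excised on day 0 from all 6 pigs, 6 samples without a location. A biopsy is a mixture of cells, so fewer cells of a type and less RNA per cell cannot be told apart.

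In skin repair, keratinocytes at the margin of a wound keep the layered, cornifying epidermis on their outer side and send a sheet of cells over the wound bed, with a switch to stress keratins such as the keratin 6 family. The bed itself has no epithelium at first. It holds neutrophils, macrophages, fibroblasts that lay down matrix, and ingrowing vessels.

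Total counts of the 12 samples of day 3 ranged from 13133379 to 23718739. Counts were divided by library size (CPM, a share of the library's reads) and scaled with TMM factors over these samples, and a difference between edge and center is the difference of log2(CPM + 1) within a wound, positive when the edge is higher. Genes at least 2-fold higher at the edge numbered 1493 and 1321 in wounds F and G of pig 1323, 849 in wound F of pig 1324 and 1620 in wound F of pig 1325, against 23 and 151 in the 2 wounds left out. The spread of counts between edge and center was 179 to 312 times that of sampling noise in the 4 wounds. It was 4.79 times in wound G of pig 1324 and 16.5 times in wound G of pig 1325. Both lay below the lowest of 30 pairs of samples from different wounds at the same location (29.4, median 142).

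Several libraries stood apart. The center library of wound G of pig 1324 held epidermal genes at the level of an edge, with 195862 counts of KRT10 against 202676 at its edge. In wound G of pig 1325 the edge library held almost none, with 176 counts of KRT10, and adipocyte genes were high (mean log2 level 9.17, against 6.74 to 7.46 at the other 5 edges). Among the 4 wounds, the center of wound F of pig 1324 carried skeletal muscle genes, with 107194 counts of ACTA1, the actin of muscle fibers, against 5, 8 and 20 in the other 3 centers.

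Over the 14581 genes that passed the filter on low counts, 597 genes (4.09%) were at least 2-fold higher at the edge in each of the 4 wounds, and 10 genes (0.0686%) were at least 2-fold higher in the center. Without the 2-fold limit the directions were even, with 2743 genes (18.8%) higher at the edge and 2878 (19.7%) higher in the center of all 4 wounds, and the median difference of all genes was -0.02. The directions were therefore alike in number without the limit and far apart with it. Just inside the limit at the edge stood P3H2 and CD9, whose smallest differences were both 1.00, and just outside it FCHO1 and TSPEAR (0.99 each). In the center OMD and NRAP lay just inside (smallest size 1.00 each), and the neutrophil chemokine CXCL2 and the pentraxin PTX3 just outside (0.97 and 0.96), although PTX3 had a median of -2.44. Wound F of pig 1324 set these counts, since without it they were 1030 and 135, and without wound F of pig 1325 the center count was 21.

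With all 6 wounds, 0 genes of 14581 passed edgeR's quasi-likelihood test at an adjusted p of 0.05 (smallest adjusted p 0.433), and 1667 genes (11.4%) were below 0.05 without adjustment. With the wound as a replicate block edgeR also gave 0 genes, and 3671 (25.2%) before adjustment. DESeq2 called 1 gene, WNT9B, a Wnt ligand named after its values were seen, which was higher at all 6 edges (log2 fold change 0.90 ± 0.18 SE, DESeq2 adjusted p 0.0122, edgeR adjusted p 0.433). On counts simulated for this comparison with 4-fold and 16-fold changes, 16.1% and 19.3% of DESeq2's calls were false. For edgeR they were 4.4% and 4.5%. Of the 597 edge genes, 459 were higher at the edge in wound G of pig 1324 and 395 in wound G of pig 1325. Their median differences there were small, 0.12 and 0.19, and those of all genes were 0.0076 and 0.0001.

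The largest edge differences belonged to genes of the epidermal barrier. Of the 22 tested genes of suprabasal differentiation and the cornified envelope, out of 25 listed, 21 were at least 2-fold higher at all 4 edges, with a median difference of 5.69, against 4.09% of all genes. KRT10, the acidic keratin of the layers above the basal one, had 238349, 276425, 67215 and 287736 counts at the edges of wounds F and G of pig 1323, F of pig 1324 and F of pig 1325, and 355, 16168, 2395 and 1371 in the centers. The groups did not overlap, the lowest edge lying above the highest center, and the median difference was 6.40 ± 2.53 (SD, n = 4 wounds). For DSG1, a cadherin of desmosomes in the upper layers, the edge values in the same order were 2288, 2316, 381 and 2428 CPM and the center values 0.392, 92.2, 15.0 and 3.80 CPM. Its median difference of 6.81 ± 3.10 was the highest of all genes tested. DSC1, its partner cadherin, followed with 6.71, and the fillers and proteases of the horny layer were close, among them FLG2 (6.22), IVL (5.63), KLK7 (6.12) and CASP14 (5.18). The exception was TGM3, a transglutaminase, which was lower at all 4 edges (median -0.76).

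**Figure D1:**
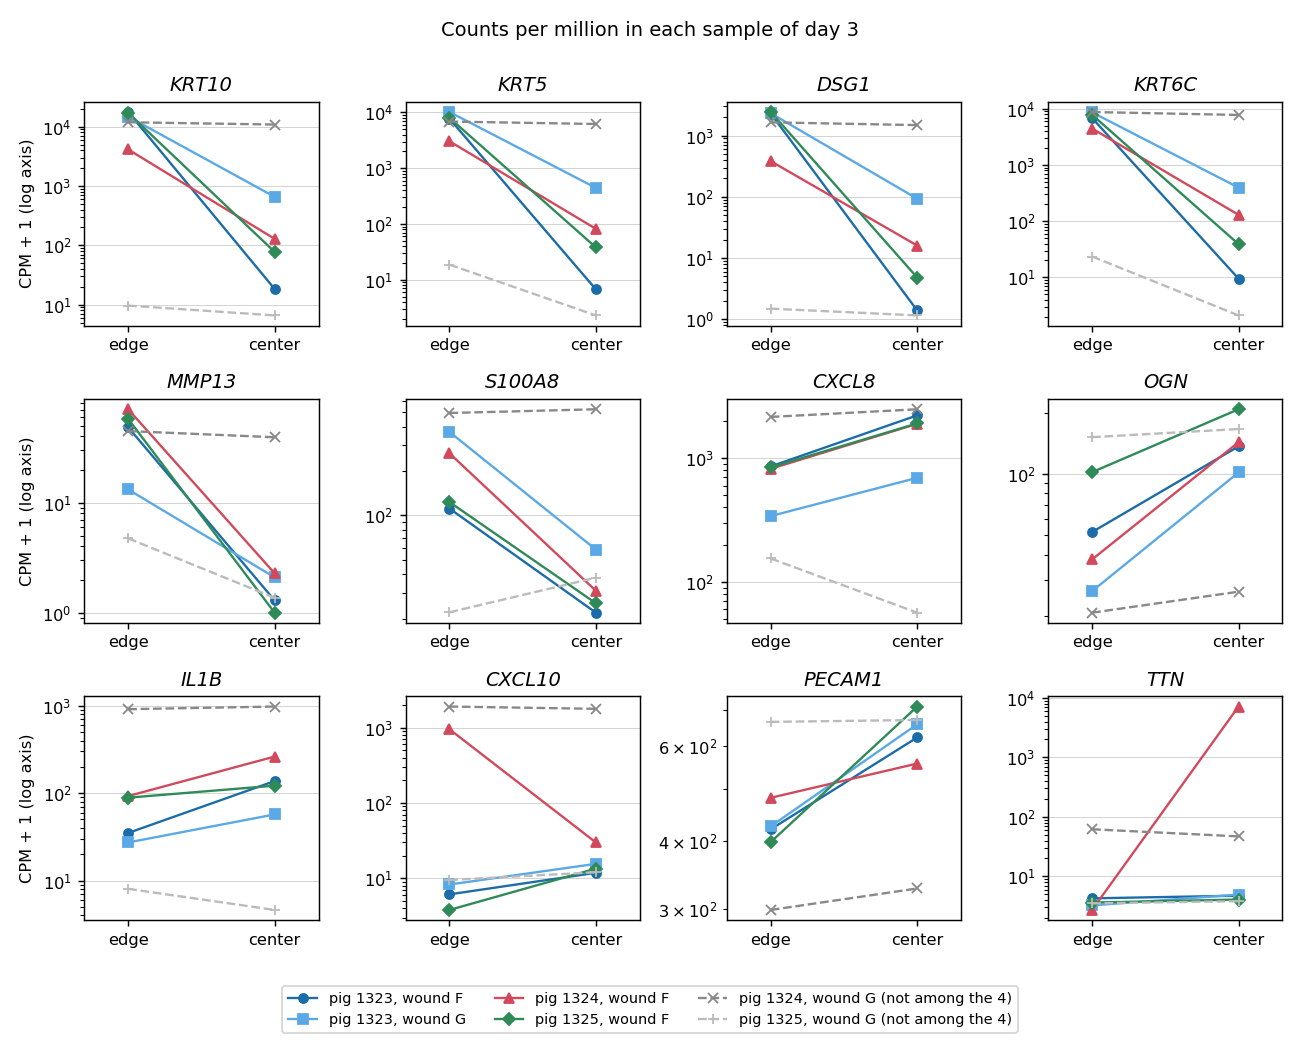
CPM plus 1, on a log axis, of 12 genes at the edge and in the center of each of the 6 wounds of day 3, with a line joining the 2 samples of a wound (solid for the 4 wounds compared, dashed for the 2 left out). KRT10, KRT5, DSG1 and KRT6C are lower in the center in the 4 solid lines, CXCL8 and OGN higher, and TTN and CXCL10 stand out in wound F of pig 1324.

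Basal keratinocyte genes were likewise higher at the edge, with a smaller median. The group held 12 tested genes of the basal layer and the hemidesmosome, the anchor of the epidermis to the dermis. Of these, 10 were at least 2-fold higher at all 4 edges, against 4.09% of all genes, and the median was 3.98. KRT5, the basic keratin of basal cells, had 7703, 10147, 3035 and 7977 CPM at the edges and 5.74, 443, 80.9 and 37.1 CPM in the centers. TP63, the transcription factor of stratified epithelia, had a median of 5.80 and COL17A1, a hemidesmosomal collagen, 6.21. The integrins ITGA6 and ITGB4 differed less (2.01 and 2.00), with CPM of 110 and 76.9 on average in the 4 centers, and DST and BCAM did not reach 2-fold in all 4 wounds (0.14 and -0.45).

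Enzymes of the lipid barrier and genes of epithelial junctions showed the same direction. Over all genes tested, 4.09% were called at the edge. Of 14 tested lipid genes, 11 were called at the edge, led by the lipoxygenase ALOX15B (5.53), the ceramide synthase CERS3 (5.34) and the lipid transporter ABCA12 (5.05). DGAT2 and FADS1, which other cell types also use, had medians of 0.24 and -0.64. Among 23 tested junction genes and their regulators, 22 were called at the edge, with a median of 4.60. They included the desmosomal PERP (6.67), DSP (6.39) and PKP1 (6.25), E-cadherin CDH1 (5.26), and the splicing and transcription regulators ESRP1 (5.63) and GRHL2 (4.42). CLDN8 missed the limit through wound F of pig 1324, where it differed by 0.17.

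The 4 wounds differed in how much lower these genes were in the center. Over the 71 tested genes of these 4 groups, the median difference was 5.86 in wound F of pig 1323, 4.11 in wound G of pig 1323, 3.67 in wound F of pig 1324 and 5.62 in wound F of pig 1325. In the 2 wounds left out it was 0.14 and 0.37. In wound G of pig 1323 the genes lay close together: the 12 genes with the largest median differences (DSG1, DSC1, PERP, KRT6B, DSG3, DSC3, KRT5, KRT10, DSP, KRT6C, POF1B and TRIM29) lay between 4.45 and 4.64, and the median of their ratios of center to edge CPM, taken without the added 1, was 4.21%. The same 12 genes lay between 8.27 and 10.68 in wound F of pig 1323, where that ratio was 0.0716%. In wound F of pig 1324 it was 3.11%, and in wound F of pig 1325 it was 0.265%. How many keratinocytes each center biopsy held was not measured, and their part in the difference between wounds was not tested.

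**Figure D2:**
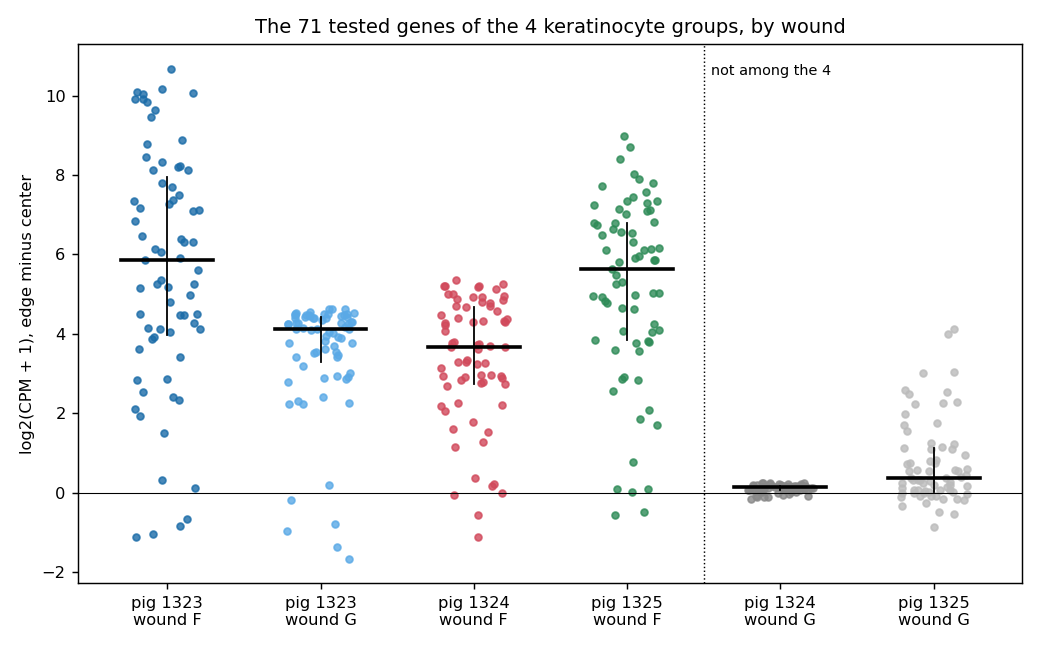
Difference of log2(CPM + 1) between edge and center for each of the 71 tested genes of the basal, suprabasal, lipid and junction groups (points), by wound, with the median (thick bar) and the quartiles (thin bar). Medians run from 3.67 to 5.86 in the 4 wounds and are 0.14 and 0.37 in the 2 wounds right of the dotted line, and the upper points of wound G of pig 1323 bunch at or below 4.64.

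Keratins and alarmins that epidermis makes when injured were higher at the edge as well. Of 25 listed genes 16 were found and 12 passed the filter. Of these 12, 7 were called at the edge (median 2.03), against 4.09% of all genes. KRT6C, a stress keratin, had 6881, 8683, 4470 and 7858 CPM at the edges and 8.48, 396, 129 and 38.0 CPM in the centers. KRT6B had a median of 6.62, but the keratin 6 genes are near copies of each other and the counting could have split their reads. The calprotectin genes S100A8 and S100A9, which both neutrophils and injured keratinocytes make, had medians of 2.50 and 2.10. S100A8 had 110, 367, 263 and 122 CPM at the edges and 20.9, 57.7, 29.9 and 24.4 CPM in the centers, without overlap. IL1RN, the interleukin-1 receptor antagonist, and LCN2, an iron-binding alarmin, were lower at all 4 edges (-0.71 and -0.73).

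Of the receptors and ligands of the epidermal growth factor family, 9 were tested. The receptor ERBB3 was the 1 called at the edge (3.32), where 4.09% of all genes were called. ERBB2 and EGFR differed by 2.26 and 1.61, with near 0 differences of 0.12 and 0.10 in wound F of pig 1324. The ligands TGFA (1.03) and EREG (1.20) were higher at all 4 edges, while AREG (-0.49) was not. In wound F of pig 1324 EREG was nearly equal, with 13.6 CPM at the edge and 13.2 in the center. Appendage genes were sparse: of 19 hair follicle genes found, 3 passed the filter, and GATA3 (3.71) and FOXN1 (3.88) were called while SOX9 was not (2.77). Among 6 sweat and sebaceous gland genes KRT79 was called (3.31), and AQP5, a water channel of sweat glands, had a median of 3.12. None of 6 melanocyte genes was called (median -0.40).

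Among 20 proteases and inhibitors of the matrix, 3 metalloproteinases (MMP13, MMP1 and MMP12) were called at the edge, against 4.09% of all genes. The group as a whole had a median of -0.50, and 11 of the 20 were lower at all 4 edges, against 19.7% of all genes. MMP13 had 640, 228, 1133 and 954 counts at the edges and 6, 27, 24 and 0 in the centers, without overlap, and a median difference of 5.09 ± 1.40 (SD, n = 4 wounds). MMP1, the interstitial collagenase, had 1674, 3123, 2881 and 2164 counts at the edges and 176, 299, 358 and 974 in the centers (median 3.41), again without overlap. MMP12, an elastase of macrophages and keratinocytes, had a median of 2.69. Other members of the group ran the other way. The inhibitor TIMP1 was lower at all 4 edges (-1.40), as were the plasminogen activator PLAU (-0.68), its receptor PLAUR (-0.93) and the protease ADAMTS4 (-0.99). Of 18 genes of hypoxia and glycolysis, the oxygen sensor EGLN3 (3.13), NDRG1 (1.52) and the mitophagy gene BNIP3 (1.42) were called at the edge, whereas ANGPTL4 (-1.02) and the collagen hydroxylase P4HA1 (-0.94) were lower at all 4 edges.

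Inflammatory genes other than the calprotectin pair, CCL28 and IL36A differed less. Calls in the groups below are to be set beside the shares of all genes, 4.09% at the edge and 0.0686% in the center. None of the 18 tested genes on the list of the interleukin-1 and interleukin-6 families was called. Of these 18, 11 were lower at all 4 edges, against 19.7% of all genes (median -0.58). IL36A, an interleukin-1 family cytokine counted with the wound-activated genes, was called at the edge. It had 3.49, 2.62, 5.54 and 1.43 CPM at the edges and 0, 0.0811, 0.267 and 0 CPM in the centers. IL1RN, of the same family and list, was lower at all 4 edges, as given above. IL1B, the chief inflammasome cytokine, had 34.0, 26.3, 91.6 and 87.7 CPM at the edges of the 4 wounds and 136, 56.0, 261 and 121 CPM in their centers. It was higher in the center of each wound, but the ranges of edges and centers overlapped, and the median difference was -1.28 ± 0.65 (SD, n = 4 wounds). IL11 (-1.59), LIF (-1.11) and SOCS3 (-1.10), the last a brake on their common pathway, were also lower at all 4 edges. Among 14 neutrophil genes, 8 were lower at all 4 edges, 2 were called at the edge (S100A8 and S100A9, described above) and 1, the chemokine CXCL8, was called in the center (group median -0.81). CXCL8 had 856, 339, 819 and 841 CPM at the edges and 2216, 693, 1893 and 1906 CPM in the centers (-1.19 ± 0.14). Each center exceeded its own edge, but the center of wound G of pig 1323 lay below the other 3 edges. Of 19 macrophage genes 8 were lower at all 4 edges, such as ARG1 (-0.94), while GPNMB (0.40) and SPP1 (0.36) were higher there (group median -0.57). Of 15 CC chemokine genes, CCL28, a chemokine of epithelia, was called at the edge (4.81), and the group median was -0.44.

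Matrix, fibroblast and vessel genes were lower at the edge in a like range. Over all genes tested, 19.7% were lower at all 4 edges, 4.09% were called at the edge and 0.0686% in the center. Of 21 granulation matrix genes 12 were lower at all 4 edges and 0 were called in either direction (median -0.78), with COL3A1 at -1.06 and COL5A2 at -1.34. Of 19 genes of resident fibroblasts and their proteoglycans 11 were lower at all 4 edges, and PDGFRA, the receptor that marks fibroblasts, had a median of -1.42. Endothelial genes had a median of -0.53, and 9 of 17 were lower at all 4 edges, among them KDR (-0.92) and CDH5 (-0.71). PECAM1, a junction molecule of endothelium, had 420, 425, 481 and 398 CPM at the edges and 622, 658, 557 and 710 CPM in the centers, all above the edges. Of 21 cell cycle genes 0 were called, and their median was 0.05. The 2 erythrocyte genes tested had medians of -0.64 (HBB) and 0.26 (ALAS2).

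The 10 center genes included OGN (-1.66), LRRC17 (-1.46), GPR84 (-1.41), GFPT2 (-1.30), SIX2 (-1.28), OMD (-1.20), CXCL8 (-1.19), IGDCC4 (-1.14) and NRAP (-1.09). OGN and OMD encode small leucine-rich proteoglycans, GPR84 a fatty acid receptor of myeloid cells, GFPT2 an enzyme that feeds glycan synthesis, and SIX2 a homeobox factor. OGN had 50.7, 25.5, 36.9 and 101 CPM at the edges and 135, 100, 142 and 207 CPM in the centers, and the highest edge reached the lowest center. GPR84 had 111, 27.5, 99.7 and 36.7 CPM at the edges and 350.1, 70.2, 276 and 95.6 CPM in the centers, which overlapped. Its differences varied little (-1.41 ± 0.15, SD, n = 4 wounds), although its levels varied widely between wounds. NRAP, a gene of muscle fibers, had 718, 706, 5961 and 504 counts in the centers, and the highest value is that of the center with muscle genes.

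**Figure D3:**
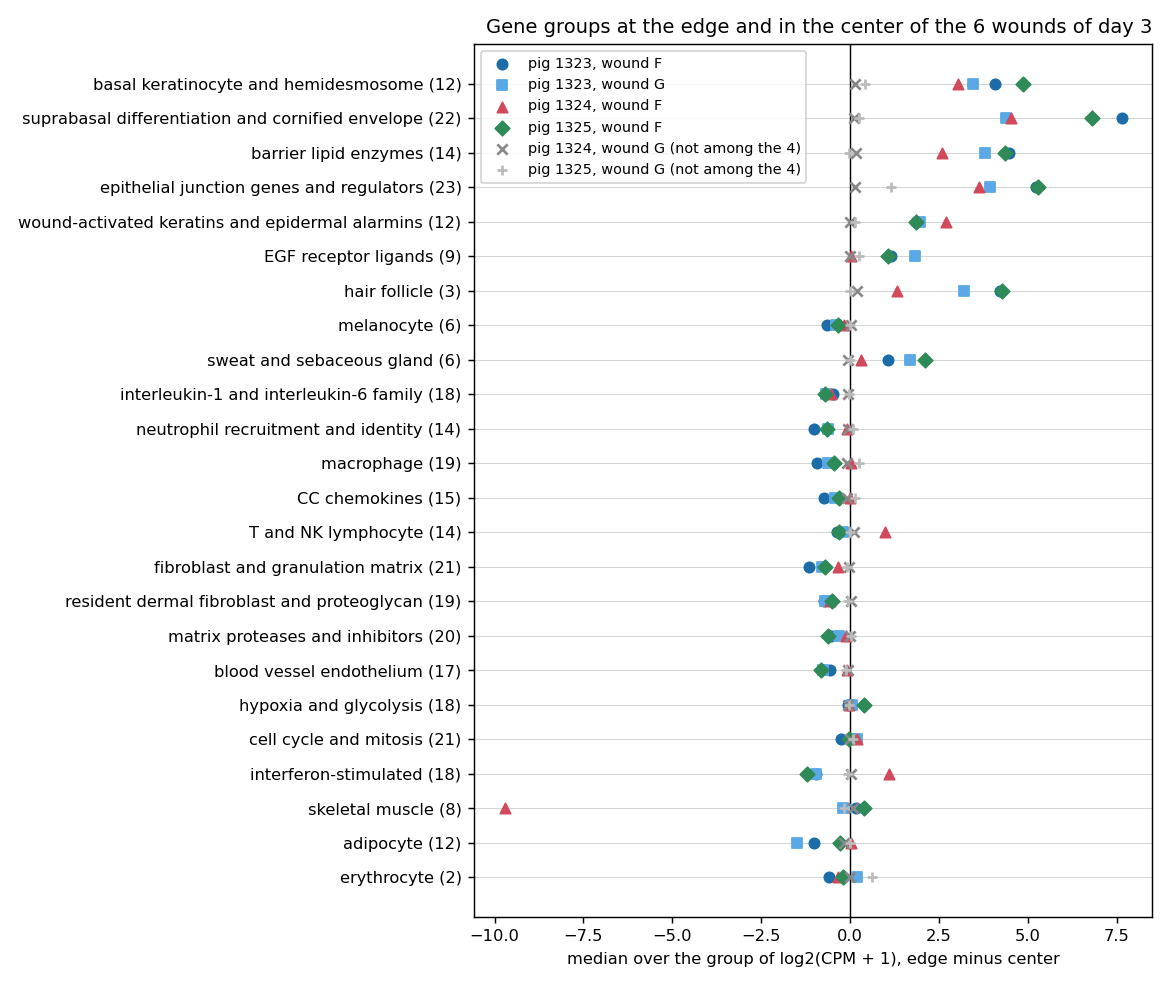
Median difference of log2(CPM + 1), edge minus center, over the tested genes of each of 24 gene groups (number tested in brackets), for the 4 wounds compared (filled symbols) and the 2 left out (crosses). The basal, suprabasal, lipid and junction groups lie between 2.59 and 7.64 in the 4 wounds, and wound F of pig 1324 stands apart at -9.71 for muscle and 1.09 for interferon genes.

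Wound F of pig 1324 went against the other 3 in several groups. All 18 tested interferon-stimulated genes were higher at its edge (median 1.09), whereas the medians were -0.95, -0.95 and -1.20 in wounds F and G of pig 1323 and F of pig 1325. CXCL10, a chemokine for T cells, had 15474 counts at its edge and 542 in its center, against 69, 136 and 47 at the other edges and 221, 359 and 223 in the other centers. Wound G of the same pig held 32593 and 32073 counts at edge and center. All 14 tested genes of T and NK lymphocytes were higher at this edge too (median 0.98), against -0.37, -0.19 and -0.30 in the other 3 wounds, and macrophage genes did not differ as a group (median 0.02). The part of lymphocyte number in the interferon difference was not tested. All 8 tested muscle genes were lower at its edge, with a group median of -9.71, and the other 3 wounds gave 0.17, -0.20 and 0.39. Adipocyte genes were lower at the edge mainly in pig 1323 (medians -1.03 and -1.49, against 0.04 in wound F of pig 1324 and -0.28 in wound F of pig 1325).

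Days 2 and 4 gave a test in animals that the choice of wounds had not used. On day 2, 5198 genes of 14652 passed edgeR's test (35.5%), and 2606 of them (17.8%) were higher at the edge. Of the 597 edge genes 596 were tested on that day, and 595 rose at the edge, with a median log2 fold change of 5.38. On day 4 edgeR called 4022 genes (27.8%), 2376 of them higher at the edge (16.4%), or 6116 genes with the wound as a replicate block. Of the edge genes 589 of 592 rose at the edge on that day, with a median of 5.07. None went the other way on either day. These genes made up 22.8% of the edge genes of day 2 and 24.8% of those of day 4, so most genes higher at the edge on those days did not reach 2-fold in all 4 wounds.

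In wounds of the same pigs on days 1 and 5, 575 of 594 edge genes rose at the edge on day 1 (24% of all genes did) and 590 of 595 on day 5 (20.3% of all genes), by edgeR, with medians of 3.53 and 5.00. The 12 genes with the largest differences in the 4 wounds all rose at the edge on days 2 and 4: KRT10 by 9.04 ± 0.67 (SE, edgeR adjusted p 3.58e-07) and 8.09 ± 0.44 (1.63e-08), and DSC1, the largest of the 12 on day 2, by 10.49 ± 0.59 (3.76e-08) and 8.39 ± 0.39 (4.52e-09). KRT6C rose by 8.67 ± 0.74 and 7.42 ± 0.71. MMP13 rose by 7.23 ± 0.91 on day 2 and by 3.49 ± 0.74 on day 4 (edgeR adjusted p 4.17e-05 and 0.00337).

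A smaller share of the center genes passed. Of the 10, edgeR called 4 as lower at the edge on day 2 (GFPT2, SIX2 and NRAP among them, against 17.7% of all genes) and 6 on day 4 (LRRC17, GFPT2, OMD, IGDCC4 and NRAP among them, against 11.4%). On days 1 and 5 the counts were 5 and 6, against 22.6% and 16.8%. With the wound as a replicate block, edgeR called 6 of them on day 2 (16.4% of all genes were lower at the edge), 8 for day 4 (21.4%), 5 for day 1 (22.7%) and 8 for day 5 (20.5%). GFPT2 fell by 1.96 ± 0.42 on day 2 and by 0.90 ± 0.29 on day 4 on the log2 scale (edgeR adjusted p 0.00297 and 0.0322). NRAP fell by 3.04 ± 0.63 and 0.87 ± 0.26, beside muscle genes that also fell at the edge on those days: 6 of 6 tested on day 2, and 3 of 5 on day 4. CXCL8 passed on neither day (log2 fold change -1.14 ± 0.98 and -1.14 ± 0.59). The calls gained with the block were GPR84 on both days (-1.50 and -1.32, edgeR adjusted p 0.0290 and 0.0403), IGDCC4 on day 2 (-1.15, adjusted p 0.0449) and OGN on day 4 (-1.08, adjusted p 0.0396). Without the library pair of replicate 2 of day 2, SIX2 fell short on that day (-2.49, adjusted p 0.0531). IL1B, which had been lower at all 4 edges on day 3, had log2 fold changes of 0.16 ± 0.93 and -1.15 ± 0.75 (edgeR adjusted p 0.911 and 0.271).

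Read from the other side, 1137 genes were at least 2-fold higher at the edge by edgeR on both day 2 and day 4. In the 4 wounds, which were chosen for their differences between edge and center, 1036 of them (91.1%) were higher at every edge. Of all genes, 18.8% were. By at least 2-fold, 587 (51.6%) were higher at every edge, against 4.09% of all genes. The median difference of the 1137 genes was 2.16. Their medians in the single wounds were 2.38, 2.12, 1.12 and 2.53, the lowest in wound F of pig 1324, and 0.10 and 0.13 in the 2 wounds left out. Another 162 genes were at least 2-fold higher in the center on both days. Of these, 109 (67.3%) were higher in the center of all 4 wounds, against 19.7% of all genes. Only 1 (0.617%) was so by at least 2-fold, against 0.0686% of all genes. The median difference of the 162 genes was -0.89. No gene of either set had the opposite sign in all 4.

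**Figure D4:**
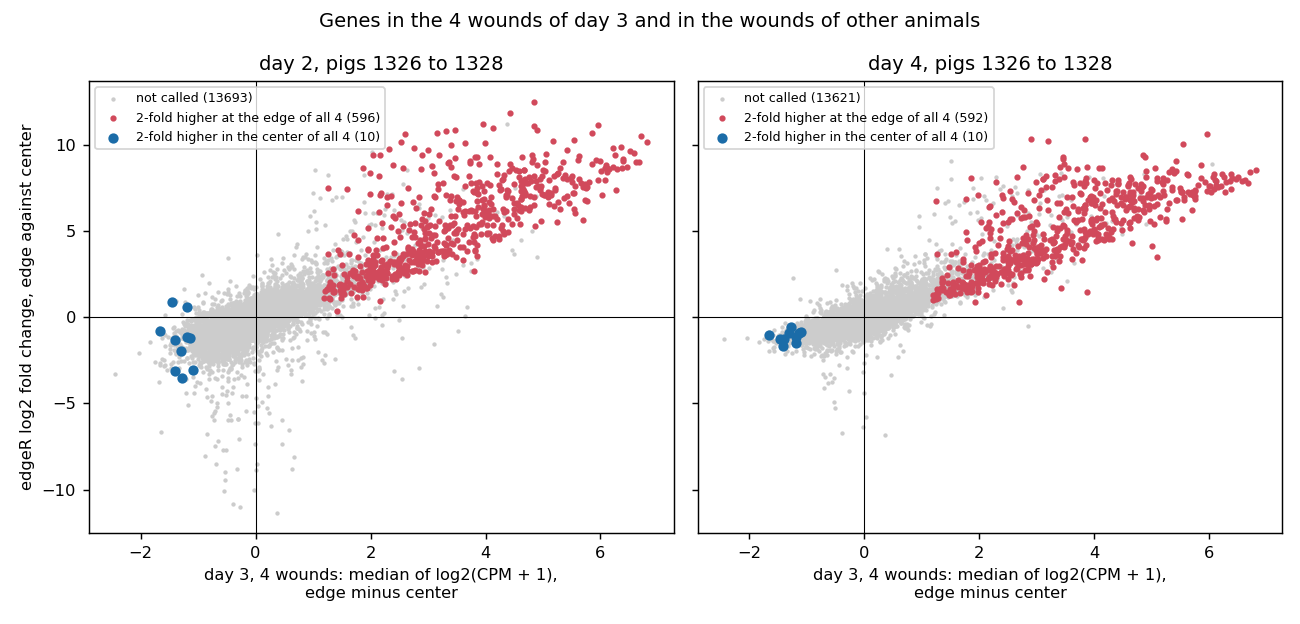
Log2 fold change of edge against center by edgeR on day 2 (left) and day 4 (right), in pigs 1326 to 1328, against the median difference in the 4 wounds of day 3, for each gene tested in both. Red points are genes at least 2-fold higher at the edge of all 4 wounds, all above 0 on both days, and blue points the 10 center genes, which scatter from -3.53 to 0.88 on day 2.

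Gene groups on days 2 and 4 were read from the same tests. By edgeR, suprabasal genes rose at the edge for 21 of 22 on both days and basal genes for 10 of 12. Lipid genes rose for 11 of 14 and junction genes for 23 of 23. Of all genes tested, 17.8% rose at the edge on day 2 and 16.4% on day 4. Endothelial genes fell at the edge for 16 of 17 on day 2 (17.7% of all genes did) and 13 of 17 on day 4 (11.4%), with PECAM1 at -0.93 ± 0.14 and -0.65 ± 0.13. Adipocyte genes fell for 10 of 12 on day 2 and for 1 of 12, ADIG, on day 4. Of the granulation matrix genes 6 of 21 fell on each day, of the macrophage genes 4 of 19 and 5 of 18, and of the interleukin-1 and interleukin-6 families 7 of 18 and 2 of 18, the last being IL1R1 and CASP1. Of 18 interferon genes on day 2, 1 (CXCL11) rose and 1 fell at the edge, and MX2 was the 1 of 17 that fell on day 4.

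Against skin of day 0, both locations of day 3 differed widely, with all 6 wounds in the test and the 6 skin samples shared by both comparisons. By edgeR, 4058 genes of 14860 were higher at the edge than in skin (27.3%) and 3381 lower (22.8%), and in the center 4520 of 14939 were higher (30.3%) and 4593 lower (30.7%). Scaled by library size without TMM, the numbers were 4707 higher and 2658 lower at the edge, and 5418 higher and 3639 lower in the center. Suprabasal genes were lower than in skin for 2 of 22 at the edge and 8 of 22 in the center, and junction genes for 8 of 23 and 14 of 23. KRT10 had 190395 to 483703 raw counts in skin, a range that includes 4 of the 6 edges, and passed in neither comparison (edge -0.87 ± 0.90, center -3.40 ± 1.50, edgeR adjusted p 0.436 and 0.0667). Both comparisons contain the 2 wounds with atypical epidermal content. KRT6C, at 8378 to 21264 counts in skin, was higher at the edge by 2.81 ± 0.81 (edgeR adjusted p 0.0127), and in the center its log2 fold change was 0.63 ± 1.44.

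Cytokines and proteases near the floor in skin were high at both locations. CXCL8 had 0 to 9 counts in skin and at least 1060 in every sample of day 3, and its log2 fold changes were 12.25 ± 0.97 at the edge and 13.01 ± 1.20 in the center (edgeR adjusted p 3.46e-06 and 4.02e-06). IL1B had 0 to 2 counts in skin and rose by 11.54 ± 1.61 and 11.89 ± 1.49. Of all genes tested, 27.3% were higher than in skin at the edge and 30.3% in the center, the shares to set beside the groups that follow. Of 14 neutrophil genes 13 were higher than in skin at either location, and of 18 macrophage genes 16 at the edge and 15 in the center. T and NK lymphocyte genes were higher for 13 of 14 and interferon genes for 18 of 18 at each location. Cell cycle genes were higher for 21 of 21 at the edge and 20 of 21 in the center. MMP1 had 5 to 11 counts in skin and rose by 8.03 ± 0.45 at the edge and 6.35 ± 0.84 in the center. Endothelial genes were higher for 15 of 17 and 17 of 17, and adipocyte genes for 10 of 12 and 12 of 12.

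Whether the difference between edge and center on day 3 departed from that of days 1 and 5 in the same pigs was tested over all wounds of the 3 days. By edgeR 0 of 15796 genes passed (smallest adjusted p 0.0789), with 2753 (17.4%) below 0.05 before adjustment, and 0 with the wound as a replicate block (3236, or 20.5%, before adjustment). DESeq2 was not run for this term. The 2 wounds left out of the 4 are part of this test.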

How the data were processed

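The authors deposited a table of raw counts of reads per gene, with whole numbers for 30461 genes in each sample. Libraries were poly-A enriched and sequenced in pairs. The aligner, counter and genome build are not given in the sources used here. A table of the authors' FPKM values was not used. Gene symbols came from the table for 12300 genes and from its protein match for 9387, 8774 genes stayed unnamed, and 2 list genes were left out because the row of that name matched another protein. Genes lie on 2337 unplaced contigs, so positions and sequences are not given here.

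The labels give each sample's pig, wound, day and location. Genes were kept by filterByExpr (minimum count 10, minimum total 15) and scaled by TMM in edgeR 4.0.16 (R 4.3.3). In the 4 wounds a gene was called when log2(CPM + 1) differed by at least 1 with the same sign in every wound, with no test. Other comparisons used edgeR's quasi-likelihood test without a replicate block, with p-values adjusted over all genes tested by Benjamini-Hochberg to 0.05 (SE from the log2 fold change and its F). Wounds were treated as separate samples although 2 come from each animal, so p-values do not cover the spread between animals fully. Alternatives were DESeq2 1.42.0, library size scaling, no filter, other pseudocounts, the wound as a replicate block and leaving out wounds. The labels pair edge and center by animal and wound, and their deviations from the group means correlated with a mean r of 0.102, 0.153, 0.324, 0.425 and 0.266 on days 1 to 5. Tables used Python 3.11.15, numpy 2.4.6 and pandas 2.3.3, and the fits were tested on simulated data.

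Total counts (13133379 to 23718739 on day 3) set the precision, and a log2 difference of a gene near 0 counts is understated by the pseudocount. Wounds, members and the 24 gene lists were chosen with earlier results of these data known. Genes were named if they had one of the 12 largest median differences in a direction among called genes with a symbol and a mean of at least 5 CPM in the higher location (10 exist in the center), if they were on a list, or if they held the largest share of counts in a library that stood apart. KRT10 and IL1B were named in every case. Also named were the genes with a symbol nearest the 2-fold limit on either side, and WNT9B, which DESeq2 called over all wounds of day 3. Values of some genes are not reported here.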

Additional observations from a re-analysis of the deposited data

Results flagged for a closer look

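Of 52 groups of values over the 6 wounds of day 3, 15 had a highest or lowest sample whose gap to the nearest other, divided by the whole range, exceeded the 95% limit of Dixon's test (0.625 for 6 samples). Chance alone gives about 1 in 20 such groups, or 2.6 here. The groups all come from the same 6 wounds, so they are not independent. Most flags fell on samples of the wounds left out above for their edge and center values. The count of 15 therefore cannot be tested against 2.6, and no excess over chance is drawn from it. At the edge of day 3, wound G of pig 1325 was lowest for basal (0.720), suprabasal (0.740), lipid (0.659), junction (0.699) and wound-activated (0.7205) keratinocyte genes and for KRT10 (0.807), and highest for adipocyte genes (0.704).

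In the center, wound G of pig 1324 was highest for lipid (0.727), hair follicle (0.703), sweat and sebaceous gland (0.650), CC chemokine (0.721), lymphocyte (0.644) and interferon-stimulated genes (0.804), and at the edge for muscle genes (0.746). Neither of these wounds is among the 4 compared. Wound F of pig 1324, which is, was highest in the center for muscle genes (0.700).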

How the results depend on the processing

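With all 6 wounds, 0 genes were at least 2-fold higher at every edge and 0 in every center, against 597 and 10 in the 4 wounds. Leaving out 1 wound at a time gave 605 to 1030 edge genes and 14 to 135 center genes, the highest in both cases without wound F of pig 1324. A pseudocount of 5 left 3 center genes (CXCL8, GPR84 and GFPT2). Pseudocounts of 0.5 and 5 gave 663 and 401 edge genes, and library size scaling, DESeq2 size factors and averaging the 2 wounds of pig 1323 gave 599 to 624. DESeq2 called 1 gene over 6 wounds (WNT9B, against 0 by edgeR). On day 4 the wound as a replicate block raised the calls from 4022 to 6116. On day 1 DESeq2 called 377 edge genes, with no adjusted p for 205. IL1B turned sign on day 2 without replicate 2 (-0.21, against 0.16). Of the tests of single genes under alternatives, 289 kept direction and call, 5 gained the call, 1 lost it (SIX2 on day 2) and 1, IL1B, reversed, and the block changed no call beyond those given. Leaving out the edge and center libraries of a wound gave 4860 calls on day 2 (replicate 2) and 4992 on day 5 (replicate 6). Without the single library that stood apart, calls against skin were 7603 at the edge and 9721 in the center. Low counts in the centers, with 0 to 27 counts of MMP13, limit how large its difference could be measured.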
